A study of Schizosaccharomyces pombe with 6 samples.

Results

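The mitochondrial ribosomal protein genes of the fission yeast *Schizosaccharomyces pombe* were followed in strains that lack cid14 or air1 and in their wild-type parent. The genes were selected by symbol: nuclear genes named mrp, mrpl or mrps plus digits in the reference gene table, matched by systematic ID to the rows of the deposited table. Of 51 such symbols all had a row, and 50 were protein-coding genes, out of 5483 measured features. The remaining one, mrp1, is the RNA of RNase MRP and is described apart. The symbol rule used no measured value, but the family was singled out with earlier results of these arrays in view, so its counts and medians are descriptions without a test. Of the 50 genes, 31 are named mrpl, 8 mrps and 11 mrp, and 19, 20 and 11 lie on chromosomes I, II and III.

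Total RNA was hybridised to 6 tiling arrays, 2 biological replicates each of cid14delta, air1delta and wild type (strain SPB76, the parent). The cid14delta strain (SPB101) lacks Cid14, a noncanonical poly(A) polymerase, and the air1delta strain (SPB103) lacks Air1, a zinc-knuckle RNA-binding protein. Both proteins belong to TRAMP, a nuclear complex that tails RNAs for the exosome. All 3 strains grew at 30 °C in YES, a rich medium that contains glucose. Each mutant was represented by a single strain. Same-numbered cid14delta and wild-type arrays shared a day per the labels, whereas the air1delta arrays belonged to an array series without a wild-type array. In each comparison of air1delta, array series and strain therefore cannot be told apart.

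Mitochondrial ribosomes translate the few messenger RNAs of the mitochondrial genome, which in yeast encode mainly membrane subunits of the respiratory chain and of the ATP synthase. Nearly all of their proteins are encoded in the nucleus, made on cytosolic ribosomes and imported. The large subunit forms peptide bonds and the small subunit decodes the messenger, and both contain counterparts of bacterial ribosomal proteins beside proteins found only in mitochondria. In budding yeast the loss of many of these proteins abolishes respiratory growth.

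The deposited values were on a log2 scale. The deleted genes were at the bottom of that scale in their own strains. The value of cid14 was 3.91 and 3.63 in cid14delta, 8.996 and 8.95 in air1delta, and 8.92 and 8.84 in wild type, while air1 had 10.46 and 10.64 in cid14delta, 4.42 and 4.90 in air1delta, and 10.49 and 10.40 in wild type. All 50 mitochondrial ribosomal protein genes had means above the highest value of a deleted gene, 4.90. The median over all features was 9.27 and 9.28 on the cid14delta arrays, 9.27 and 9.29 on the air1delta arrays, and 9.21 and 9.21 on the wild-type arrays. The wild-type arrays thus had the lowest medians, and changes relative to wild type carry this offset. The target was double-stranded, so a signal cannot be assigned to a strand, and the number of arrays limits the precision.

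Most genes of the family had slightly higher values in the mutants, and few of these differences passed the test. The median of the 50 genes was 9.57 and 9.55 on the cid14delta arrays, 9.52 and 9.48 on the air1delta arrays, and 9.43 and 9.38 on the wild-type arrays. Both pairs of mutant medians lay above both wild-type medians. The median log2 change of the family was 0.17 in cid14delta and 0.12 in air1delta, against 0.03 and 0.03 over all features. In cid14delta 43 changes were positive and 7 negative, and in air1delta 35 were positive and 15 negative. Both comparisons used the same wild-type arrays.

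**Figure D1:**
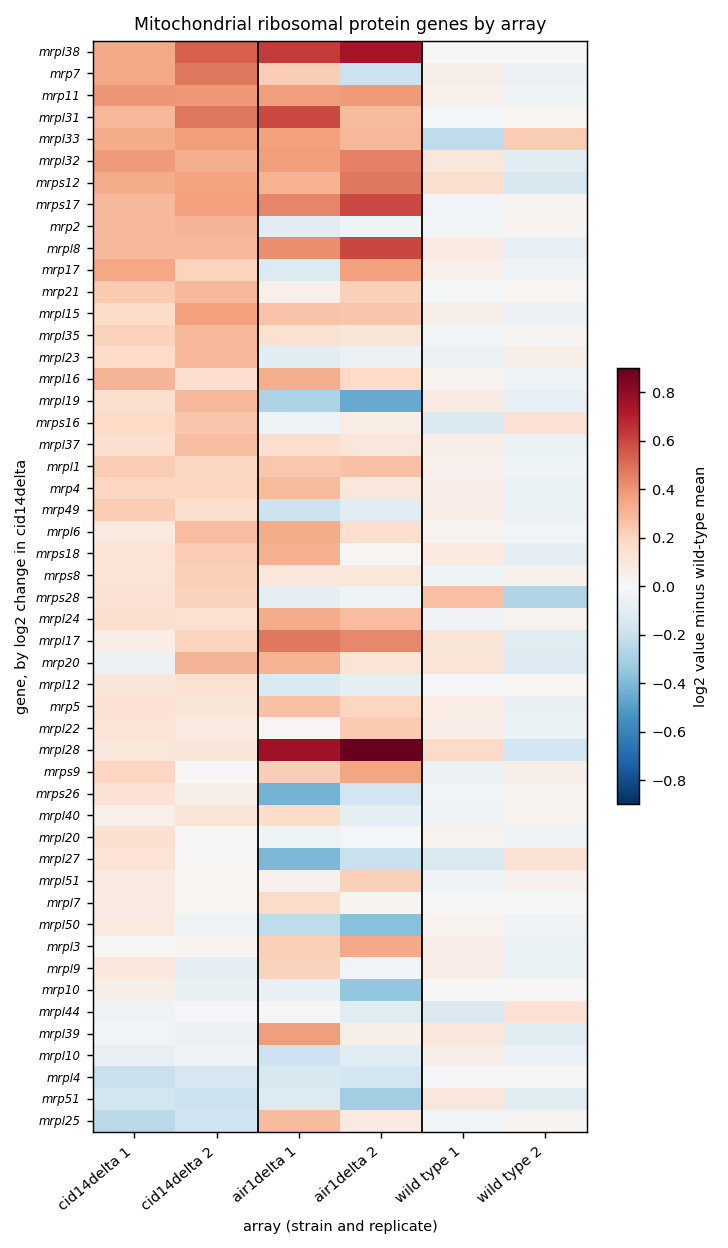
The colour of each cell gives a gene's log2 value on 1 array minus its wild-type mean, with arrays as columns (cid14delta, air1delta, wild type, 2 each) and the 50 genes as rows ordered by their change in cid14delta. Most rows are red on the cid14delta arrays, where 43 of 50 changes were positive, while the air1delta arrays hold the darkest cells of both colours, such as mrpl28 and mrpl19.

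The question of how the family behaved without Cid14 was addressed with limma, calling a gene at an adjusted p under 0.05 over all features (every adjusted p given here is of this kind). In cid14delta 3 genes rose (6.0% of the family, against 4.78% of all features) and 0 fell (against 3.88%), while 47 were not called. At an unadjusted p under 0.05, 18 of the 50 were higher and 1 was lower, against 977 and 664 of all 5483 features. Both cid14delta arrays lay above both wild-type arrays for 32 genes (64.0%, against 35.0% of all features) and below them for 3 (6.0%, against 27.7%).

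In the large subunit, mrpl38 (SPBC887.07) had the largest rise in cid14delta. The budding yeast protein of this name is the counterpart of bacterial L14, a protein at the face where the subunits join. The log2 value of mrpl38 was 8.44 and 8.64 in cid14delta and 8.11 and 8.10 in wild type. It rose by 0.44 ± 0.09 (± SE from limma, with 2 arrays in each strain), which is 1.36-fold, with an adjusted p of 0.0421. The groups did not overlap, and the within-day differences were 0.34 and 0.55.

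The gene mrp11 (SPAC31A2.03), a large subunit gene by its synonym mrpl11, had 8.05 and 8.04 in cid14delta and 7.70 and 7.61 in wild type. Its replicates were close together and its groups were apart on both days, by 0.35 and 0.43. It rose by 0.39 ± 0.06, or 1.31-fold (adjusted p = 0.029).

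The third rise was that of mrp2, whose symbol gives no subunit. The budding yeast Mrp2 protein is the counterpart of bacterial S14, a protein of the decoding subunit's head. The log2 value of mrp2 (SPAC23H3.07c) was 9.36 and 9.38 in cid14delta and 9.05 and 9.10 in wild type. It rose by 0.30 ± 0.06, or 1.23-fold (adjusted p = 0.0421), with within-day differences of 0.31 and 0.28.

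These calls were near the threshold. With a block for the replicate number, which follows the shared day, none of the 3 was called in 6 arrays (adjusted p = 0.0572 for mrp11, 0.0587 for mrpl38 and 0.0713 for mrp2) or in the 4 arrays of cid14delta and wild type. Over all features the block called 1.88% higher in 6 arrays, and 0 higher and 1 lower in the 4 arrays. Over all alternative fits, including those with an array left out, the rise of mrp11 lay between 0.27 and 0.43. That of mrpl38 lay between 0.34 and 0.54, and that of mrp2 between 0.21 and 0.32.

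Several uncalled genes had changes of similar size. The largest was that of mrp7, whose budding yeast namesake is the L27 counterpart of the large subunit. It had 10.70 and 10.83 in cid14delta and 10.41 and 10.31 in wild type, a difference of 0.41 ± 0.15 (adjusted p = 0.137). The change was 0.39 for mrpl31, 0.36 for mrpl33, 0.35 for mrpl32, 0.35 for mrps12 and 0.33 for mrps17. All of these had both cid14delta arrays above both wild-type arrays, and none passed the test, with adjusted p-values between 0.0597 and 0.185.

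No gene of the family was called lower in cid14delta. The most negative change was that of mrpl25 (SPAC1952.14c), which had 8.17 and 8.24 in cid14delta and 8.39 and 8.44 in wild type, a difference of -0.21 ± 0.09 (adjusted p = 0.177). For mrp51, whose budding yeast namesake is a small subunit protein, the values were 11.25 and 11.24 in cid14delta and 11.53 and 11.32 in wild type (-0.18, adjusted p = 0.288). For mrpl4 they were 7.81 and 7.86 in cid14delta and 7.995 and 8.02 in wild type (-0.18, adjusted p = 0.115). In these 3 genes both cid14delta arrays lay below both wild-type arrays, and no other gene of the family had that pattern.

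The subunits had similar medians in cid14delta. Of 32 genes assigned to the large subunit by symbol or synonym, 2 rose and 0 fell, with a median log2 change of 0.13. Of 9 assigned to the small subunit 0 were called, all 9 changes were positive, and the median was 0.17, with a range of 0.09 to 0.35. Among the 9 genes whose symbol gives no subunit, mrp2 rose and the median was 0.19. Within the first shared day the median of the 50 genes was 0.12, and within the second it was 0.20, with 40 positive differences on each day and 33 positive on both.

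**Figure D2:**
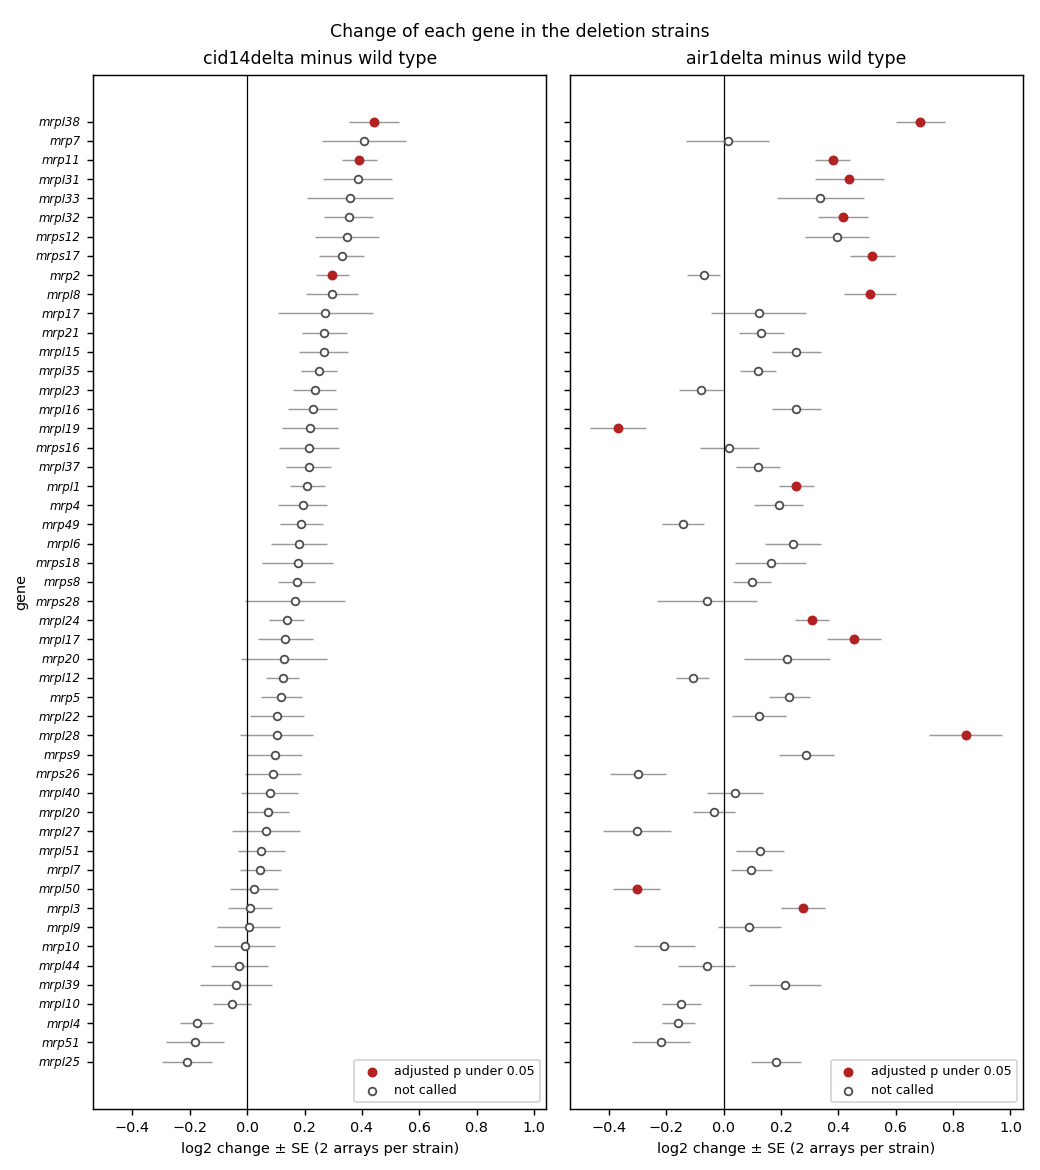
Each point is the log2 change of 1 gene (x axis, with bars of ± 1 SE, 2 arrays per strain) in cid14delta (left) and air1delta (right) relative to wild type, with genes ordered by the cid14delta change. Filled points passed an adjusted p under 0.05, which were 3 genes in cid14delta and 13 in air1delta; the air1delta changes run from -0.37 to 0.84 and the cid14delta changes from -0.21 to 0.44.

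The same questions were put to the strain without Air1, where more features were called across the whole table. In air1delta 11 genes rose (22.0% of the family, against 16.4% of all features), 2 fell (4.0%, against 9.72%) and 37 were not called. At an unadjusted p under 0.05, 16 of the 50 were higher and 5 lower, against 1357 and 901 of all 5483 features. Both air1delta arrays lay above both wild-type arrays for 26 genes (52.0%, against 39.3% of all features) and below them for 11 (22.0%, against 29.7%).

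The largest rise was that of mrpl28 (SPAC4F8.05c), named after a large subunit protein that in budding yeast has no bacterial counterpart. Its log2 value was 8.96 and 9.11 in air1delta, 8.29 and 8.30 in cid14delta, and 8.36 and 8.02 in wild type. The air1delta arrays stood above all others, while the cid14delta values lay between the wild-type ones. It rose by 0.84 ± 0.13 in air1delta, or 1.80-fold (adjusted p = 0.0141), and differed by 0.10 in cid14delta (adjusted p = 0.626).

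The gene mrpl38 had 8.73 and 8.84 in air1delta against 8.11 and 8.10 in wild type, and rose by 0.69 ± 0.09, or 1.61-fold (adjusted p = 0.01). Its air1delta values were also above both cid14delta values, but the difference of 0.24 between the mutants was not called (adjusted p = 0.126). The gene mrp11 had 8.03 and 8.04 in air1delta against 7.70 and 7.61 in wild type, and rose by 0.38 ± 0.06 (adjusted p = 0.0149). Its air1delta and cid14delta values differed by 0.01.

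Further large subunit genes rose in air1delta. The budding yeast Mrpl8 protein is the counterpart of bacterial L17 and lies near the exit of the peptide tunnel. For mrpl8 (SPBC1271.13) the values were 10.95 and 11.13 in air1delta and 10.60 and 10.45 in wild type, a rise of 0.51 ± 0.09 (adjusted p = 0.0182). The gene mrpl17 (SPCC126.05c) had 10.06 and 10.02 in air1delta and 9.69 and 9.48 in wild type, and rose by 0.46 ± 0.09 (adjusted p = 0.0252). Neither gene's groups overlapped.

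The gene mrpl31 (SPCC16A11.11) had 8.88 and 8.57 in air1delta and 8.27 and 8.30 in wild type. Its air1delta arrays were far apart but both above wild type, and the rise of 0.44 ± 0.12 was close to the threshold (adjusted p = 0.049). The budding yeast Mrpl32 protein is matured by the m-AAA protease of the inner membrane. The values of mrpl32 (SPBC1604.13c) were 7.23 and 7.31 in air1delta and 6.95 and 6.75 in wild type, a rise of 0.42 ± 0.09 (adjusted p = 0.0252). The smallest rises were those of mrpl24 (0.31 ± 0.06), mrpl3 (0.28 ± 0.08) and mrpl1 (0.25 ± 0.06), with adjusted p-values of 0.022, 0.0483 and 0.0345.

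One small subunit gene rose in air1delta. The budding yeast Mrps17 protein is the counterpart of bacterial S17, which binds ribosomal RNA early in assembly. The log2 value of mrps17 (SPBC409.14c) was 11.74 and 11.89 in air1delta, 11.59 and 11.66 in cid14delta, and 11.27 and 11.32 in wild type. All 4 mutant arrays lay above both wild-type arrays. The gene rose by 0.52 ± 0.08 in air1delta, or 1.43-fold (adjusted p = 0.0136), while the change in cid14delta, 0.33 ± 0.08, was not called (adjusted p = 0.0597). The next small subunit gene, mrps12, differed by 0.40 in air1delta and was not called (adjusted p = 0.0534).

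The 2 genes that fell in air1delta belong to the large subunit. The budding yeast Mrpl19 protein is the counterpart of bacterial L11, a protein of the base where translation factors bind. The log2 value of mrpl19 (SPAC1486.07c) was 9.52 and 9.35 in air1delta, 9.94 and 10.09 in cid14delta, and 9.87 and 9.73 in wild type. The air1delta arrays were the lowest 2 and the cid14delta arrays the highest 2. It fell by 0.37 ± 0.10 in air1delta (adjusted p = 0.0444), and its difference of 0.22 in cid14delta was not called (adjusted p = 0.205).

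The budding yeast Mrpl50 protein is the counterpart of bacterial L9. On the log2 scale mrpl50 (SPCC24B10.04) had 7.71 and 7.56 in air1delta, 8.03 and 7.90 in cid14delta, and 7.98 and 7.91 in wild type. Only the air1delta arrays stood apart, below the other 4. It fell by 0.30 ± 0.08 (adjusted p = 0.0477).

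By subunit, 10 of 32 large subunit genes rose and 2 fell in air1delta, with a median log2 change of 0.15. Of 9 small subunit genes 1 rose and 0 fell, with a median of 0.16 and a range of -0.30 to 0.52. None of the 9 genes without a subunit in their symbol was called, and their median was 0.01. Of these 9 changes 5 were positive and 4 negative, from -0.22 in mrp51 to 0.22 in mrp20. Differences between the subunits were not tested.

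The calls in air1delta became fewer when any single array was left out. Calls over the whole table became fewer as well, so counts from these fits are not given. The family's median change was 0.1004 without air1delta replicate 1 and 0.1873 without air1delta replicate 2. It was 0.1594 without wild type replicate 1 and 0.1221 without wild type replicate 2. Over all alternative fits the change of mrpl19 lay between -0.46 and -0.28 and that of mrpl50 between -0.46 and -0.23. From the 4 arrays of air1delta and wild type alone, 6 genes were called higher and 0 lower. Over all features that fit called 10.6% higher and 5.31% lower.

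**Figure D3:**
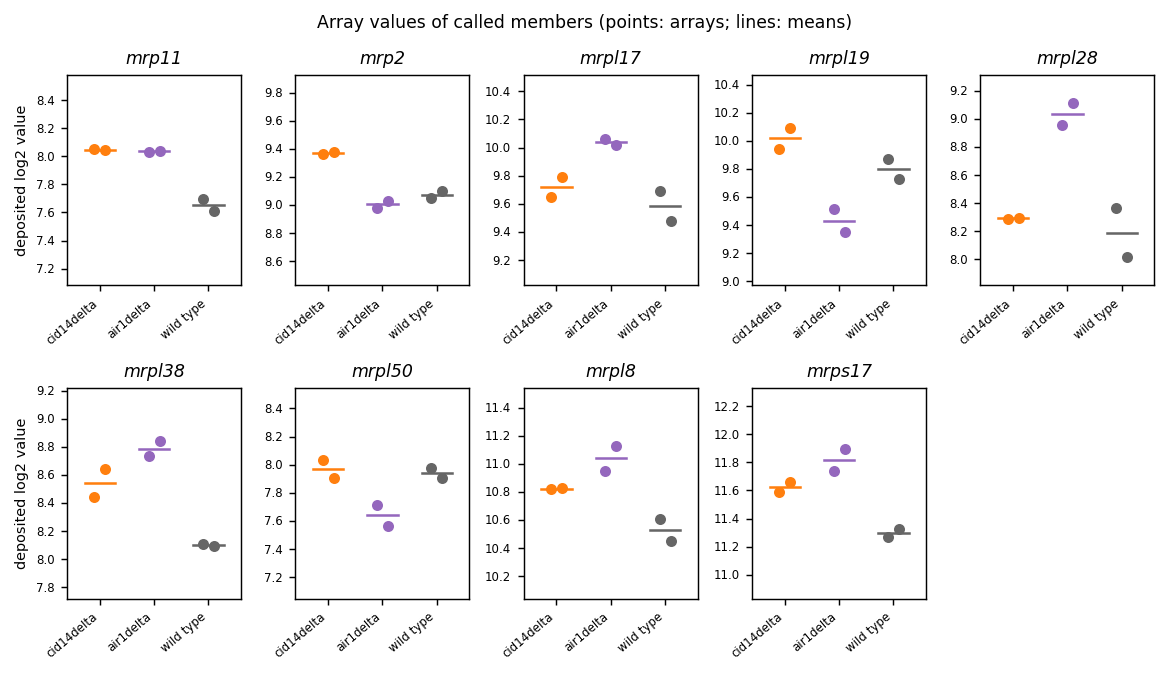
Points give the deposited log2 value of each array for 9 genes called in at least 1 comparison and under every array scaling of it, or in cid14delta, with lines at strain means; strains run cid14delta, air1delta, wild type along each x axis, and every y axis spans the same log2 range. The air1delta points of mrpl28 stand above the others and those of mrpl19 and mrpl50 below, while mrp11 is higher in both mutants than in wild type.

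The mutants were also compared directly, which tests whether a gene's change differed between them. In air1delta relative to cid14delta, 2 genes were higher (4.0% of the family, against 5.51% of all features) and 2 lower (4.0%, against 4.5%), while 46 were not called. The median difference was -0.01, with 23 positive and 27 negative values. At an unadjusted p under 0.05, 6 of the 50 were higher and 9 lower, against 966 and 782 of all 5483 features.

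The higher genes were mrpl28, by 0.74 ± 0.13 (1.67-fold, adjusted p = 0.0334), and mrpl25, by 0.39 ± 0.09 (adjusted p = 0.0497). In mrpl25 the values were 8.70 and 8.49 in air1delta, 8.17 and 8.24 in cid14delta, and 8.39 and 8.44 in wild type. The air1delta arrays lay above wild type and the cid14delta arrays below it, and neither difference from wild type was called. The lower genes were mrpl19, by -0.59 ± 0.10 (adjusted p = 0.0318), and mrp2, by -0.37 ± 0.06 (adjusted p = 0.0296). In mrp2 the values were 8.98 and 9.03 in air1delta against 9.36 and 9.38 in cid14delta, and the air1delta values were just below the wild-type values of 9.05 and 9.10. With the replicate number as a block in 6 arrays none of these 4 genes was called. That fit called 0.802% of all features higher and 0.511% lower, and it pairs air1delta arrays by number only, without a shared day. Over all alternative fits the difference lay between 0.66 and 0.82 for mrpl28 and between 0.29 and 0.50 for mrpl25. It lay between -0.67 and -0.50 for mrpl19 and between -0.43 and -0.34 for mrp2.

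Negative differences between the mutants prevailed among the 9 genes without a subunit in their symbol, where 8 values were negative and the median was -0.15. The budding yeast namesakes of mrp7 and mrp49 are large subunit proteins, and those of mrp17 and mrp21 small subunit ones. The difference in air1delta relative to cid14delta was -0.39 for mrp7, -0.33 for mrp49, -0.15 for mrp17 and -0.14 for mrp21, and none of these was called. The gene mrp49 missed the threshold narrowly (adjusted p = 0.0502).

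How each array was scaled mattered for these small changes. Besides the values as deposited, 4 scalings were tried: centring each array on its median, quantile normalization, cyclic loess normalization and removal of a trend with gene length. Under them the median change of the family lay between 0.10 and 0.13 in cid14delta and between 0.0043 and 0.11 in air1delta. The lowest air1delta value came from the removal of the length trend and was close to 0. For air1delta and wild type the spread of the family's median between replicates was 0.0459 (SD, both strains combined). The family's genes are short, with a median gene length in the reference table of 1053.5 bases against 1710 over all matched features. Across all matched features, which are not independent replicates, Pearson's r between change and length was -0.12 in air1delta and -0.04 in cid14delta.

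None of the 3 rises in cid14delta was called under all 4 scalings. The gene mrp11 was called in 3 of them and lost under quantile normalization, and mrp2 and mrpl38 were called in none. In air1delta 8 of 13 calls were kept under all 4: the rises of mrp11, mrpl8, mrpl17, mrpl28, mrpl38 and mrps17 and the falls of mrpl19 and mrpl50. The calls of mrpl1, mrpl3, mrpl24, mrpl31 and mrpl32 were lost under at least 1. Between the mutants the calls of mrp2, mrpl19 and mrpl28 were kept under all 4 and that of mrpl25 under none.

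Some genes were called only after scaling, and all of them were lower. The change of mrpl4 in air1delta was -0.16 as deposited (adjusted p = 0.0985) and between -0.31 and -0.23 under the 4 scalings, where each called it lower. In cid14delta quantile normalization called mrpl4 lower by -0.32 (adjusted p = 0.044). Centring, quantile and cyclic loess normalization called mrps26 lower in air1delta, with changes between -0.43 and -0.37. Quantile and cyclic loess normalization also called mrpl12, at -0.26 each, and removal of the length trend called mrp2 at -0.22 and mrpl10 at -0.30.

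**Figure D4:**
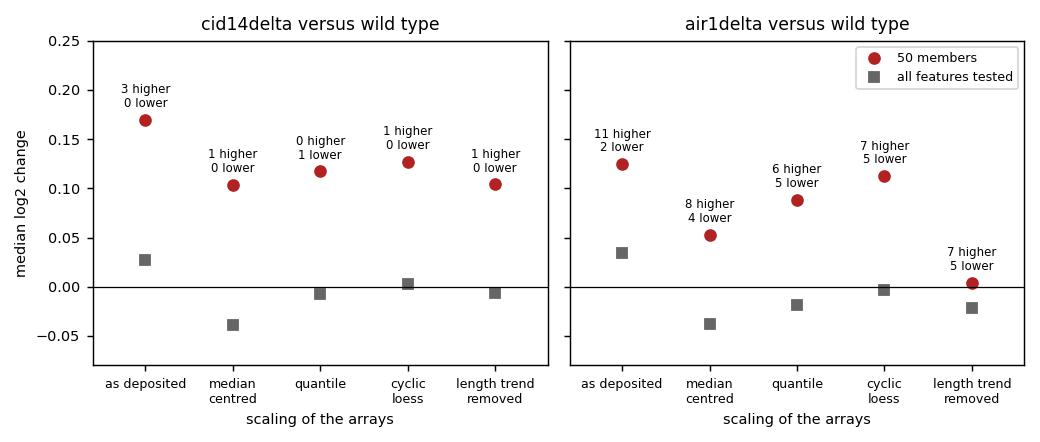
The y axis is the median log2 change of the 50 genes (circles) and of all features tested (squares) relative to wild type, for cid14delta (left) and air1delta (right), under the array scalings on the x axis, with the counts of genes called higher and lower printed above. The family's median lies above that of all features in both panels. It is lowest, and close to 0 at 0.0043, in air1delta after removal of the length trend.

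Replicates of the family agreed about as well as those of all features in cid14delta and wild type and less well in air1delta. The median absolute difference between the 2 arrays of a strain was 0.076 for the family and 0.080 for all features in cid14delta, 0.146 and 0.090 in air1delta, and 0.104 and 0.092 in wild type. The largest single difference was 0.36 in cid14delta (mrp20), 0.50 in air1delta (mrp17) and 0.54 in wild type (mrps28). In mrps28 the wild-type values of 9.61 and 9.06 enclosed both cid14delta values, 9.46 and 9.54, and both air1delta values, 9.25 and 9.30. No change of mrps28 was called.

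Values of different genes rest on different probes, so the ends of the family's range are given only to show where its values lay on the scale. At the upper end mrp10 had 12.49 and 12.37 in cid14delta, 12.37 and 12.09 in air1delta, and 12.43 and 12.44 in wild type. At the lower end mrpl44 had 5.55 and 5.59 in cid14delta, 5.59 and 5.49 in air1delta, and 5.47 and 5.73 in wild type. Neither changed by the test in any comparison, and the strains overlapped in mrpl44. Genes with the smallest changes in cid14delta included mrpl9 (0.01), mrp10 (-0.01), mrpl3 (0.01) and mrpl50 (0.02).

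The symbol rule also matched mrp1 (SPNCRNA.82), the RNA component of RNase MRP, an enzyme that cleaves precursor ribosomal RNA. Its log2 value was 10.15 and 10.19 in cid14delta, 9.59 and 9.59 in air1delta, and 9.37 and 9.61 in wild type. The cid14delta arrays stood above the other 4. It rose by 0.68 ± 0.09 in cid14delta, or 1.60-fold (adjusted p = 0.0236), and the change of 0.10 in air1delta was not called (adjusted p = 0.432). In air1delta relative to cid14delta it fell by 0.58 ± 0.09 (adjusted p = 0.0295). The rise in cid14delta was called under all 4 scalings and with the replicate block in 6 arrays (adjusted p = 0.0453). It was not called from the 4 arrays of cid14delta and wild type (0.0598), where 0.839% of all features were called higher. Over all alternative fits the rise of mrp1 lay between 0.56 and 0.80.

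Genes that work with mitochondrial ribosomes were read from lists chosen by symbol. For all of these lists the background is the share called over all features, 4.78% higher and 3.88% lower in cid14delta and 16.4% higher and 9.72% lower in air1delta. With the replicate block in 4 arrays 0 genes of any list were called in cid14delta. Over all features that fit called only 0 higher and 1 lower, so its 0 cannot describe the lists. List counts with the block in 6 arrays are given where they differ by over 1.5 times. That block called 1.88% of all features higher and 1.39% lower in cid14delta, and 13.3% and 7.19% in air1delta. It pairs air1delta arrays by number only, without a shared day. The first list held 13 mitochondrial ribosomal protein genes under other symbols, such as rsm and sws2. In cid14delta 0 of 13 were called and the median log2 change was 0.11. In air1delta 2 rose and 2 fell, with a median of 0.03 that was negative under each of the 4 scalings. In budding yeast Sws2 is a counterpart of bacterial S13, and the value of sws2 was 11.03 and 10.98 in air1delta, 10.33 and 10.07 in cid14delta, and 10.04 and 10.14 in wild type. It rose by 0.91 ± 0.10 (adjusted p = 0.00857), and rsm27 rose by 0.59, while rsm10 fell by 0.36. The uncalled change with the smallest p in cid14delta was that of rsm7, at 0.31 (adjusted p = 0.0976).

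Of 26 genes of mitochondrial translation factors and ribosome assembly, 1 rose and 0 fell in cid14delta, with a median of 0.12, and 6 rose and 2 fell in air1delta, with a median of 0.08. The rise in cid14delta was that of mef1, the mitochondrial elongation factor G, which had 11.52 and 11.58 in cid14delta and 11.14 and 11.13 in wild type (0.41 ± 0.07, adjusted p = 0.0306, and 0.0587 with the replicate block in 6 arrays, where 0 were called). In air1delta guf1, a GTPase related to bacterial LepA, rose by 0.65 and mrf1, a release factor, by 0.58, while mss51, which in budding yeast activates translation of the COX1 messenger, fell by 0.51. With the replicate block in 6 arrays 4 rose and 1 fell in air1delta. Of 14 genes for mitochondrial aminoacyl-tRNA synthetases and tRNA modification, 1 rose in cid14delta (msw1, the tryptophan enzyme, by 0.44, not called with the replicate block in 6 arrays, adjusted p = 0.0581) and 0 fell. The median of 0.05 was negative after centring, quantile and cyclic loess normalization. In air1delta 2 of these rose and 1 fell, with a median of -0.05, and slm3, which in budding yeast thiolates mitochondrial tRNA, rose by 0.96.

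The products of mitochondrial translation join nuclear-encoded subunits. Of 50 nuclear genes of the respiratory chain, the ATP synthase and their assembly, 12 rose (against 4.78% of all features) and 0 fell (against 3.88%) in cid14delta, with a median log2 change of 0.24. Rises numbered 6 with the replicate block in 6 arrays. In air1delta 15 rose (30.0%, against 16.4%) and 3 fell (6.0%, against 9.72%), with a median of 0.16. The rises with the smallest p in cid14delta were those of cox6 (0.66), qcr7 (0.46) and rip1 (0.42). In air1delta qcr8 rose by 1.03 and qcr6 by 0.82, while sdh3 fell by 0.52. Of 27 genes of mitochondrial protein import 0 were called in cid14delta (median 0.02, negative under each of the 4 scalings), while 8 rose and 1 fell in air1delta, or 9 and 2 with the replicate block in 6 arrays (median 0.13, and -0.02 after removal of the length trend). Among these tim21 rose by 0.72, tim13 by 0.63 and tim14 by 0.60 in air1delta.

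As deposited, the cytosolic ribosomal protein genes had a negative median change in air1delta and the mitochondrial ones a positive one. Of 134 such genes 2 rose (1.49%, against 16.4% of all features) and 25 fell (18.7%, against 9.72%) in air1delta, with a median log2 change of -0.10, against 11 rises, 2 falls and a median of 0.12 among the 50 mitochondrial genes; the difference between the lists was not tested. Without the length trend the mitochondrial median in air1delta was 0.0043, with 7 rises and 5 falls (against 12.2% and 13.4% of features tested). Falls among the cytosolic genes numbered 16 in air1delta with the replicate block in 6 arrays. The falls with the smallest p were those of rps2602 (-1.12), rpl2002 (-0.60) and rps403 (-0.47). In cid14delta 3 of the cytosolic genes rose and 1 fell, or 0 and 1 with the replicate block in 6 arrays, with a median of -0.02 that was 0.04 after quantile and cyclic loess normalization. Many cytosolic genes have near-identical copies, and whether their probes share signal was not tested.

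**Figure D5:**
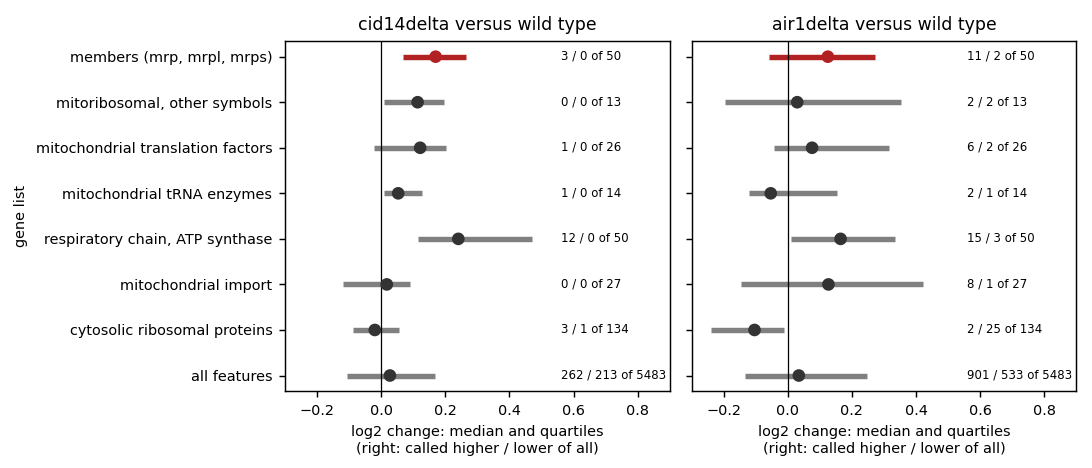
For each gene list (rows) the point is the median log2 change relative to wild type and the bar runs between the quartiles over genes, for cid14delta (left) and air1delta (right), with the counts called higher and lower at the right. The 50 mitochondrial ribosomal protein genes (top row) have medians of 0.17 and 0.12, the cytosolic ones lie at -0.02 and -0.10, and all features at 0.03 and 0.03.

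Some markers of growth state were called in the mutants, in short lists. The background is again 4.78% of all features higher and 3.88% lower in cid14delta, and 16.4% and 9.72% in air1delta. Of 10 core stress genes 2 rose and 0 fell in cid14delta and 3 rose and 0 fell in air1delta, with medians of 0.22 and 0.22. The small heat shock protein gene hsp16 rose by 1.37 in cid14delta and 1.02 in air1delta. With the replicate block in 6 arrays 0 of the 10 were called in cid14delta (adjusted p = 0.06 for hsp16) and 2 rose in air1delta, without hsp16 (adjusted p = 0.0507). Of 6 genes known to be repressed by glucose, 1 rose in each mutant (16.7%, near the background in air1delta), with medians of -0.02 and 0.26. It was gut2, a mitochondrial glycerol-3-phosphate dehydrogenase gene, which rose by 0.85 in cid14delta and 0.74 in air1delta. With the replicate block in 6 arrays 2 of the 6 genes rose in air1delta. Of 10 starvation and mating-entry genes, 1 rose and 2 fell in cid14delta (median -0.17), and 2 rose and 3 fell in air1delta (median -0.01). These counts were 1 and 0 in cid14delta and 3 and 3 in air1delta with the replicate block in 6 arrays. The part of growth state in the changes of the mitochondrial ribosomal protein genes was not tested.

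Overlap with adjacent genes was read from the order of gene models in the reference assembly ASM294v3, since the arrays did not resolve strands. Of the 50 genes, 32 overlapped an adjacent protein-coding gene model and 18 did not. The median change was 0.17 with and 0.15 without an overlap in cid14delta, and 0.12 with and 0.12 without in air1delta. In air1delta 7 of the 32 genes with an overlap rose and 0 fell. Of the 18 without, 4 rose and 2 fell. Over all features 16.4% rose and 9.72% fell, and a difference by overlap was not tested. The rise of mrpl28 in air1delta stood beside one of its overlapping divergent neighbour rpf1, a ribosome assembly factor gene, at 0.55. The rise of mrp11 stood beside a fall of its overlapping convergent neighbour pre1, at -0.64, and mrpl38 had no overlapping neighbour. How much signal neighbours shared was not tested.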

How the data were processed

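The authors deposited 1 table of log2 values for 5483 features on 6 arrays. That the scale is log2 was read off their range, 2.75 to 14.8. The affy package is named, per the submitters' processing notes, without a role. How background, arrays and probes were handled, and on which genome build, is not given in the sources used here. Per the labels' protocols, RNA came from cells at an optical density of 0.5 by hot phenol extraction and was labelled as double-stranded target.

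Features were matched by systematic ID to a RefSeq gene table (assembly ASM294v3, used for names, lengths and gene order only): 5357 matched, 20 of them through a synonym, and 126 did not. Subunits were taken from symbols and synonyms. The members, the 9 gene lists and the tests were chosen with earlier results of these data known. Genes of other functions (rsm1, sam1, pam1, tim11, cox24) were taken off the lists once the members' results, but not yet those of the lists, were known. Every member could be named; array values are given for the 8 highest and 8 lowest called members of each comparison, or for the 3 largest changes in a direction without calls, and from each other list up to 3 called genes with the smallest p, of which some are printed, or the top gene by p where none was called. Neighbours are named where their signal bears on a member. Promoter motifs were not analysed here.

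The comparisons used limma 3.58.1 (R 4.3.3), with strain as the only factor over all 6 arrays (3 residual and 2.51 prior degrees of freedom), two-sided. P-values were adjusted by Benjamini-Hochberg across the whole table, with a threshold of 0.05. The code was tested on simulated data. Alternatives were 4 array scalings, an intensity trend in the variance, a filter at the level of a deleted gene, 4-array fits, blocks for the replicate number or day, and leaving out each array. Per the labels, same-numbered cid14delta and wild-type arrays shared a day. The main fit did not pair them, and pairing entered only the within-day differences and the fits with a block. Replicate numbers of air1delta were not taken to follow a shared day, so the replicate block pairs its arrays by number only. Deviations of same-numbered arrays correlated at r = -0.00632 between cid14delta and wild type. The correlation was 0.0413 between air1delta and wild type and 0.0159 between the mutants.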

Additional observations from a re-analysis of the deposited data

How the results depend on the processing

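No call of a member was reversed under any alternative; over all members' calls and alternatives, 162 values kept the call and 158 lost it in the same direction. As deposited, 3 members were called higher and 0 lower in cid14delta, 11 higher and 2 lower in air1delta, and 2 higher and 2 lower in air1delta relative to cid14delta. In cid14delta 1 was higher after centring, cyclic loess normalization or removal of the length trend (against 3.47%, 3.43% and 4.22% of features tested). There were 5 higher with an intensity trend (against 6.88%) and 4 with the filter on low values (against 6.69% of features that passed it). Quantile normalization gave 0 higher and 1 lower (against 2.86% and 3.23%). The 4 arrays of both strains gave 0 (against 0.839% higher and 0.419% lower). In air1delta 8 were higher and 4 lower after centring (against 11.7% and 15.1% of all features tested). There were 6 and 5 after quantile normalization (against 11.2% and 12.1%) and 7 and 5 after cyclic loess normalization (against 12.7% and 11.1%). Without the length trend 7 were higher and 5 lower (against 12.2% and 13.4%). With an intensity trend 12 and 1 were called (against 17.9% and 11.7%), and from 4 arrays 6 and 0 (against 10.6% and 5.31%). Between the mutants 1 was higher under each of the 4 scalings (against 4.35% to 5.09% of all features tested) and from 4 arrays (against 5.49%). After centring, quantile, cyclic loess and length correction 3, 4, 4 and 6 were lower (against 4.65%, 5.09%, 4.71% and 5.04%). There were 5 lower with an intensity trend (against 6.97%) and 4 with the filter (against 6.19% of features that passed it).

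With the replicate block, called members numbered 0 in cid14delta in 4 or 6 arrays. In air1delta 8 were higher and 1 lower in 6 arrays (against 13.3% and 7.19% of all features). In 4 arrays 1 was higher and 0 lower (against 2.9% and 0.894%). Between the mutants 0 were called in 6 arrays (against 0.802% higher and 0.511% lower). In 4 arrays 1 was higher and 0 lower between the mutants (against 1.24% and 0.584%). For air1delta this block pairs arrays by replicate number only, without a shared day. The day as a random block gave the same counts as no block. Over all features limma called 103 higher and 76 lower in cid14delta with the replicate block in 6 arrays, and 0 and 1 in 4.

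Leaving out an array left a strain with 1 array, which was assumed to vary like the others. Calls then became fewer over all features, so counts of members from these fits are not given. The family's median in cid14delta ranged from 0.1372 to 0.198 over them.

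The family's median in cid14delta was 0.17 as deposited, 0.1035 after centring, 0.1174 after quantile normalization and 0.104 without the length trend. In air1delta it was 0.1247 as deposited, 0.0528 after centring, 0.0043 without the length trend and from 0.1004 to 0.1873 leaving out arrays. Between the mutants it was -0.0118 as deposited, -0.0328 after quantile normalization, -0.0535 without the length trend and from -0.0505 to 0.0151 leaving out arrays. Over all features 55.2% of calls in cid14delta were higher as deposited and 34.9% after centring; in air1delta these shares were 62.8% and 43.7%, with 48.2% after quantile normalization and 47.8% without the length trend. The cause of these shifts was not tested. Of the called genes of other lists, only those picked for the smallest p in each list and comparison were followed. They are a subset of the calls, so their shares do not describe whole lists. Among them, all 4 scalings kept 13 of 14 in cid14delta (not rpp203) and 23 of 25 in air1delta (not pyp2 and rep1). Between the mutants the scalings kept 19 of 20 (not msf1). The replicate block in 6 arrays kept 5 in cid14delta (cox6, gut2, mam2, qcr7 and rip1) and 24 in air1delta (not hsp16). Between the mutants this block kept 7.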

Other observations

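The genes next to the members were also read. Of 99 measured adjacent protein-coding genes, 8 were called higher (8.08%, against 4.78% of all features) and 5 lower (5.05%, against 3.88%) in cid14delta by limma. In air1delta 21 were higher (21.2%, against 16.4%) and 9 lower (9.09%, against 9.72%). The members mrpl28 and mrps12 adjoin each other and are themselves among the 99, so the rise of mrpl28 is among the 21. With the replicate block in 6 arrays the counts were 3 and 2 in cid14delta and 20 and 10 in air1delta. A few neighbours of called members were singled out after their values were seen. Next to mrps17, the divergent gene tsr2 rose by 0.83 in air1delta without an overlap of the gene models (adjusted p = 0.00825). Next to mrpl38, the tandem gene SPBC887.08 rose by 0.65 in air1delta (adjusted p = 0.00796), beside a rise of 0.69 in mrpl38. Next to mrpl8, the tandem gene aga1 fell by 0.48 in air1delta, where mrpl8 rose by 0.51. The only adjacent pair of members, mrpl28 and mrps12, is convergent, and in air1delta mrpl28 rose by 0.84 while mrps12 differed by 0.40 without a call.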
